A study of Homo sapiens with 9 samples.

Results

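Gene expression was compared between SKOV-3 cells on a hydrogel of intermediate stiffness (4 kPa) and on the stiffest hydrogel of the series (25 kPa), across all expressed genes. The established SKOV-3 line derives from a human ovarian adenocarcinoma and was grown here for 3 days on hydrogel-coated dishes (0.5, 4 or 25 kPa), with no drug and no genetic change in any group. Poly(A) RNA was sequenced in 9 libraries, 3 per gel, and the 6 libraries of 4 kPa (numbered 1, 2 and 3) and 25 kPa (numbered 2, 3 and 4) enter this comparison. Of 36343 genes in the deposited count table, 16335 had enough counts to be tested. The cells are 1 cell line on a synthetic gel, without the other cells of a tumor. Whether the 3 libraries per gel were separate cultures is not stated, so every p-value measures only the spread between these libraries, which may be technical.

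Total counts were 19609740 to 20262204 per 4 kPa library and 19948256 to 21033433 per 25 kPa library, ranges that overlap. Genes with at least 1 count numbered 25615 to 26024 per 4 kPa library and 24764 to 25079 per 25 kPa library, ranges that do not overlap. Mitochondrial transcripts took 3.99 to 4.41% of the counts on 4 kPa and 4.15 to 4.60% on 25 kPa. All 13 epithelial and ovarian carcinoma markers passed the count filter. Their summed level was 5112 to 5846 CPM on 4 kPa and 4880 to 5035 CPM on 25 kPa, most of it from ERBB2 alone. A log2 fold change (4 kPa minus 25 kPa) at or below 0 was seen in 9 of the 13, and their median was -0.06. None of the 9 leukocyte markers passed the filter (summed level 0.296 to 0.765 and 0.146 to 0.501 CPM, with CD3E at 0). Replicate 3 of 4 kPa lay farthest from the mean of its gel, at a root mean square distance of 0.254 log2 CPM over the tested genes against 0.180 to 0.224 in the other 8 libraries. Levels are given as CPM, counts scaled to a common library size with TMM factors. These factors were 1.006 to 1.021 on 4 kPa and 0.966 to 0.988 on 25 kPa, and so were separate between the gels. A gene was called at an adjusted p under 0.05 in edgeR's quasi-likelihood test, and log2 fold changes are 4 kPa minus 25 kPa with their standard error (SE).

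Cells sense the stiffness of a substrate through integrins, focal adhesions and the actin cytoskeleton. Several routes carry this signal to the nucleus, among them the kinase ERK, the SRF and MRTF factors and the coactivators YAP and TAZ with their DNA-binding TEAD partners. Immediate early genes such as FOS and EGR1 are transcribed within minutes of a growth factor, stress or mechanical signal without new protein synthesis, and many of their RNAs decay just as fast. Genes of mitosis follow another program, in which transcription rises late in the cell cycle through promoter elements called CCAAT and CHR.

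The main difference between the 4 and 25 kPa hydrogels was a higher level of immediate early genes and of feedback inhibitors of ERK on 4 kPa. Genes of mitosis, the splicing kinase CLK1 and many AT-rich transcripts were lower on 4 kPa, by smaller amounts. Of the 16335 genes tested, 147 were called (0.9% of those tested), 71 of them higher on 4 kPa (0.435%) and 76 lower (0.465%). The median absolute log2 fold change was 0.66 in the genes called higher and 0.42 in those called lower. At least a 2-fold difference was seen in 18 called genes (0.11%), of which 17 were higher and 1 was lower on 4 kPa. In all 147 called genes the 3 libraries of one gel did not overlap those of the other, which held for 20.1% of all tested genes. Such separation largely follows from the call itself and is no separate support for it. The immediate early, early response and ERK feedback lists together held 24 of the 71 genes called higher. The lists of mitosis, replication and centrosome genes held 9 of the 76 called lower.

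**Figure D1:**
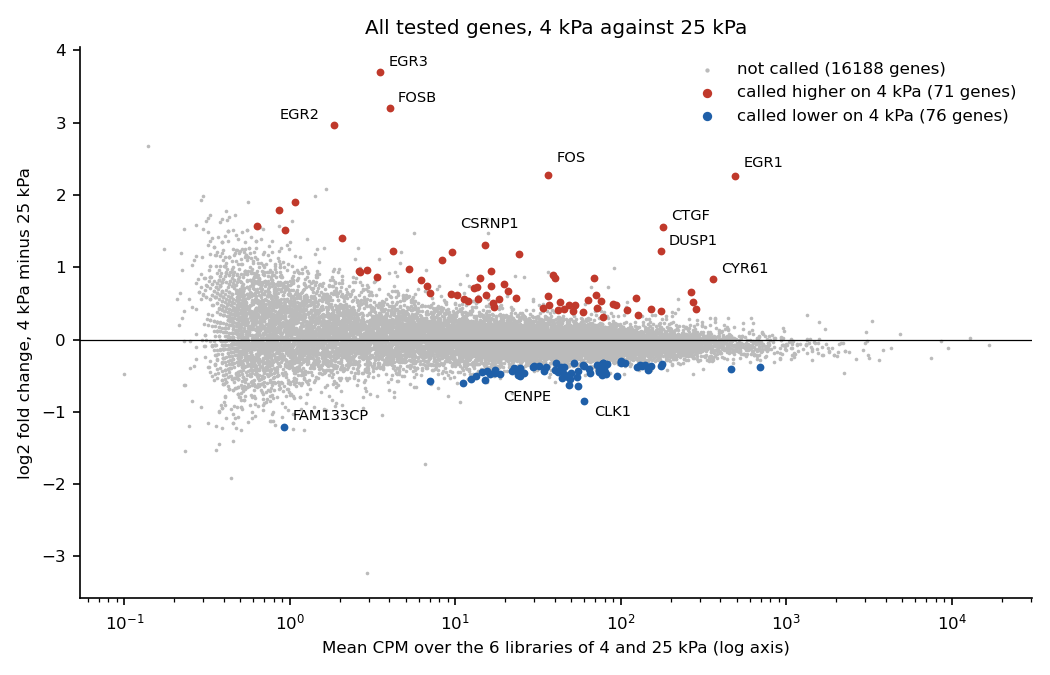
Each point is 1 of the 16335 tested genes, with its mean CPM over the 6 libraries on a log axis and its log2 fold change (4 kPa minus 25 kPa). Red points are the 71 genes called higher on 4 kPa and blue points the 76 called lower. The early genes EGR3, FOSB, EGR2, FOS and EGR1 stand above a log2 fold change of 2, and only FAM133CP among the called genes lies below -1.

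The number of called genes depended on single libraries, also on those of 0.5 kPa, which enter the fit through the shared estimate of the spread, the count filter and the TMM scaling. Without a library of 4 kPa it was 50 (replicate 1), 30 (replicate 2) and 302 (replicate 3). Without a library of 25 kPa it was 80 (replicate 2), 29 (replicate 3) and 25 (replicate 4). Without a library of 0.5 kPa it was 64 (replicate 1), 46 (replicate 2) and 223 (replicate 3). A total of 20 of the 71 genes called higher, but only 2 of the 76 called lower (CLK1 and CENPE), kept their call in each of these 9 fits. All 147 genes kept their direction in each of them. With upper-quartile scaling 69 genes were called higher and 28 lower, against 71 and 76 with TMM scaling.

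Immediate early transcription factors showed the largest differences. Of 28 listed genes 27 were tested, and 13 of them were called higher on 4 kPa and none lower, against 0.435% of all tested genes called higher. All 27 had a log2 fold change above 0, with a median of 0.64 against -0.01 over all tested genes. In 21 of them every 4 kPa library lay above every 25 kPa library (8.97% of all tested genes).

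EGR1 (ENSG00000120738, chromosome 5 from 138465490 to 138469315 in hg38) encodes a zinc finger factor of the early growth response family. It was at 829, 884 and 716 CPM in the 4 kPa libraries and at 163, 155 and 187 CPM in the 25 kPa libraries. The lowest 4 kPa library thus lay far above the highest 25 kPa library (log2 fold change 2.27, SE 0.11, edgeR adjusted p = 1.5e-07). FOS, which pairs with JUN proteins to form the factor AP-1, was at 59.2, 62.8 and 59.8 CPM on 4 kPa and at 11.1, 10.8 and 15.6 CPM on 25 kPa. The FOS libraries were closely grouped on 4 kPa (log2 fold change 2.28, SE 0.13, edgeR adjusted p = 1.1e-06). Its relative FOSB was scarce on 25 kPa, at 0.804, 0.711 and 0.824 CPM, and reached 8.05, 7.12 and 6.55 CPM on 4 kPa. This was a 9.21-fold difference (log2 fold change 3.20, SE 0.22, edgeR adjusted p = 5.0e-06). EGR3 had the largest fold of all called genes (13.0-fold), from 0.452, 0.559 and 0.485 CPM on 25 kPa to 7.55, 7.76 and 4.35 CPM on 4 kPa. EGR2 was at 3.55, 4.03 and 2.25 CPM on 4 kPa and at most at 0.679 CPM on 25 kPa. For both of these family members replicate 3 was the lowest of the 4 kPa libraries and still above all of 25 kPa.

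Among the other factors of this list, CSRNP1, a nuclear protein that AXIN1 induces, was at 21.9, 23.0 and 19.8 CPM on 4 kPa and at 8.34, 8.18 and 9.55 CPM on 25 kPa (log2 fold change 1.31, SE 0.11, edgeR adjusted p = 4.8e-05). NFKBIZ, an atypical IκB protein of the nucleus, had a log2 fold change of 0.89 (SE 0.08) and IER2 one of 0.86 (SE 0.09). The orphan nuclear receptor NR4A1 rose by 1.22 on the log2 scale and KLF2, a Krüppel-like factor best known from endothelium under flow, by 0.94. The AP-1 members JUN and JUNB were higher by 0.42 and 0.57, and KLF6 by 0.51. JUN was at 318, 329.9 and 324 CPM on 4 kPa against 246, 236 and 244 CPM on 25 kPa, a small difference with little spread. Among listed genes that were not called, ATF3, a stress-induced factor, was at 18.6, 18.6 and 32.4 CPM on 4 kPa and at 10.6, 6.30 and 8.10 CPM on 25 kPa. MYC had a log2 fold change of 0.45 and SRF, which drives many early genes, one of 0.09. With single libraries left out the list had 9 to 15 genes called higher and none lower. EGR1, EGR2, EGR3, FOS, FOSB, CSRNP1, NFKBIZ, IER2 and KLF6 kept their call in all 9 of these fits. NR4A1 lost it without 4 kPa replicate 2 or 25 kPa replicate 4. JUN lost it without 4 kPa replicate 2 or 25 kPa replicates 3 or 4, KLF2 without any single 25 kPa library, and JUNB in 5 of the 9 fits. KLF6 reversed with estimated counts summed over transcripts, where its log2 fold change was -0.98.

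**Figure D2:**
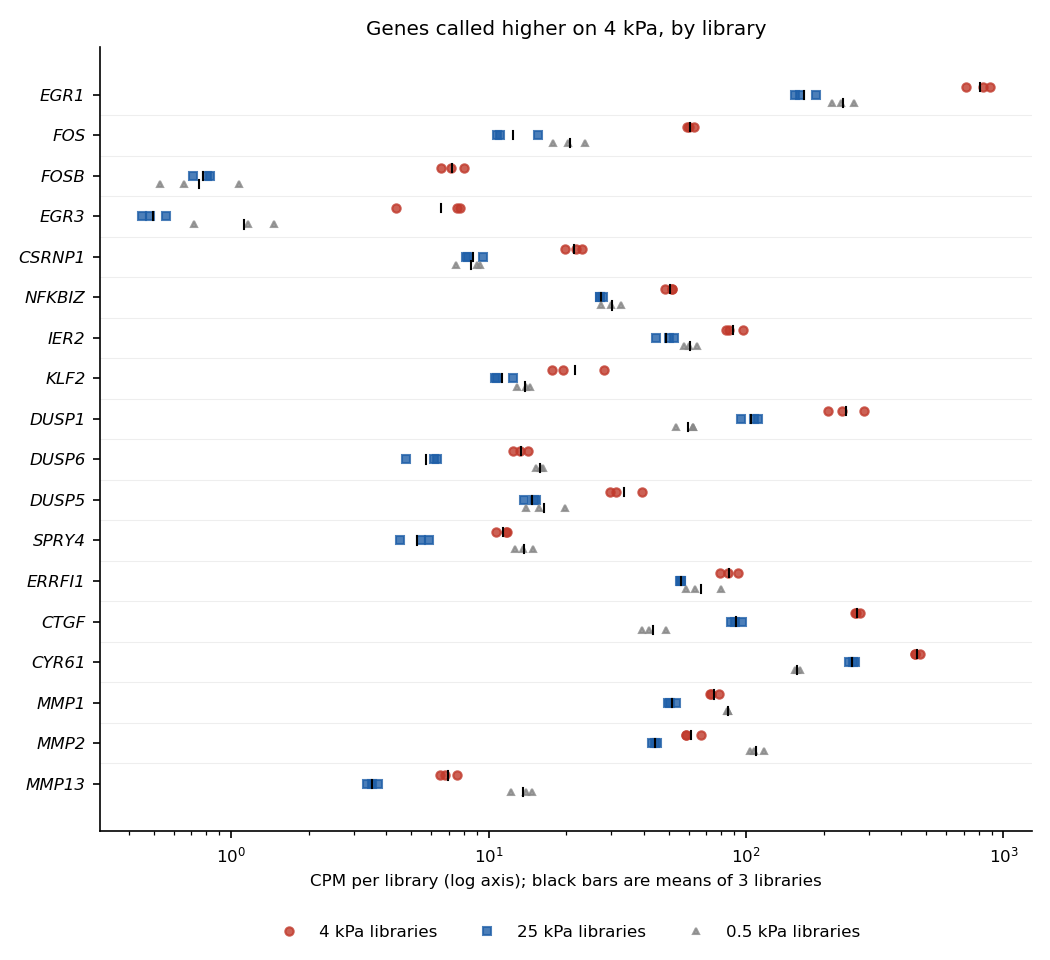
CPM per library on a log axis for 18 genes called higher on 4 kPa, with red circles for 4 kPa, blue squares for 25 kPa, gray triangles for 0.5 kPa and black bars for means of 3 libraries. In every gene shown the 3 circles lie to the right of the 3 squares, as for EGR1 at 716 to 884 CPM against 155 to 187 CPM.

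Early response genes that do not encode transcription factors were also higher. Of 23 tested genes 6 were called higher and none lower, against 0.435% of all tested genes called higher. The median log2 fold change of the 23 was 0.30, and 22 were above 0. CTGF (CCN2) and CYR61 (CCN1) encode secreted matricellular proteins that bind integrins, and both are classical targets of YAP and TAZ as well. CTGF was at 276, 266 and 267 CPM on 4 kPa and at 87.4, 90.6 and 96.0 CPM on 25 kPa, a 2.95-fold difference with little spread on either gel (log2 fold change 1.56, SE 0.08, edgeR adjusted p = 3.1e-07). CYR61 was at 453, 455 and 475 CPM against 264, 252 and 260.5 CPM (log2 fold change 0.83, SE 0.06, edgeR adjusted p = 1.9e-05). The pseudokinase TRIB1, which brings proteins to the COP1 ubiquitin ligase, rose by 0.86 and the serum and glucocorticoid-regulated kinase SGK1 by 0.74. The RNA-decay factor ZFP36 was at 14.6, 17.4 and 22.6 CPM on 4 kPa and at 10.1, 9.25 and 11.01 CPM on 25 kPa, and IER3, an early gene linked to survival, was at 276, 308 and 389.6 CPM against 229.5, 175.5 and 210.3 CPM. In ZFP36 and IER3 the highest 4 kPa library was replicate 3. CTGF, CYR61, TRIB1 and SGK1 kept their call with each library left out, ZFP36 lost it without 4 kPa replicate 2 or any one 25 kPa library, and IER3 lost it in 5 of the 9 fits.

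CTGF and CYR61 were the only members of the YAP and TAZ target list that were called, of 26 tested. The share of all tested genes called higher was 0.435%. The median log2 fold change of that list was 0.0007, and 13 of 26 members were above 0. AXL, a receptor tyrosine kinase of this list, had -0.16, ANKRD1, a muscle ankyrin repeat protein, -0.20, and AMOTL2, which binds YAP, 0.16, and none of these was called. None of the 31 tested Hippo pathway components was called in edgeR (2 at an unadjusted p under 0.05, 1 higher and 1 lower, against 6.77% of all tested genes higher and 8.06% lower at that p, and none in DESeq2). YAP1 itself was at 188, 188 and 173 CPM on 4 kPa and at 168, 188 and 184 CPM on 25 kPa, so its libraries overlapped.

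Feedback inhibitors and targets of ERK formed a further group that was higher on 4 kPa. Of 22 tested genes 5 were called higher and none lower, against 0.435% of all tested genes called higher. The median log2 fold change was 0.49, with 17 of the 22 above 0. At an unadjusted p under 0.05, 14 were higher and 1 lower (63.6% and 4.55%, against 6.77% and 8.06% of all tested genes). DUSP1, a nuclear phosphatase of MAP kinases, was at 209, 236 and 287 CPM on 4 kPa and at 111, 95.3 and 108 CPM on 25 kPa (log2 fold change 1.22, SE 0.11, edgeR adjusted p = 6.7e-05). DUSP6, which dephosphorylates ERK in the cytoplasm, was at 14.3, 12.5 and 13.2 CPM against 6.13, 4.78 and 6.30 CPM (log2 fold change 1.21, SE 0.12, edgeR adjusted p = 1.6e-04). Both phosphatases stood more than 2-fold higher, with no overlap. DUSP5, a nuclear ERK phosphatase, rose by 1.19 (SE 0.14) and SPRY4, a Sprouty inhibitor of receptor tyrosine kinase signaling, by 1.10 (SE 0.12). The EGF receptor inhibitor ERRFI1 was at 85.0, 79.4 and 93.2 CPM on 4 kPa and at 55.8, 55.9 and 55.6 CPM on 25 kPa. ETV5, an ETS factor downstream of ERK, had a log2 fold change of 0.89, DUSP4 0.49 and SPRY2 0.53, none of them called, while SPRY1 had -0.28. DUSP1, DUSP5, DUSP6 and SPRY4 kept their call with each library left out, and ERRFI1 lost it without 25 kPa replicate 3 or without replicate 4.

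Upstream of ERK, none of the 11 tested ligands and receptors of the EGF family was called in edgeR (2 at an unadjusted p under 0.05, none in DESeq2). The 2 were both higher and were 18.2% of the list, against 6.77% of all tested genes higher at that p. HBEGF, a ligand of the EGF receptor that is itself an early gene, was at 16.8, 17.6 and 19.6 CPM on 4 kPa and at 13.9, 15.1 and 15.3 CPM on 25 kPa. ERBB2, the gene of HER2 and amplified in SKOV-3, was at 3772, 3943 and 3100.1 CPM against 2921, 3198 and 2944 CPM. The ERBB2 libraries of the gels overlapped, with replicate 3 the lowest of 4 kPa.

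The 0.5 kPa libraries, which are shared with the other comparisons of the series, show where these levels stood on the softest gel. EGR1 was at 234, 263 and 216 CPM there, FOS at 20.4, 23.7 and 17.9 CPM and CTGF at 41.9, 39.5 and 48.7 CPM. For EGR1, FOS and CTGF the 4 kPa libraries were thus the highest of all 9 (log2 fold changes of 0.5 minus 4 kPa of -1.77, -1.55 and -2.64, with edgeR adjusted p = 7.3e-07, 2.0e-05 and 1.2e-09). DUSP6 and SPRY4 differed, since they were at 15.3 to 16.2 CPM and at 12.7 to 14.9 CPM on 0.5 kPa, and the log2 fold changes of 0.5 minus 4 kPa were 0.25 and 0.27 with edgeR adjusted p = 0.33 and 0.31.

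The upstream promoters of members on which these results turn are printed here from RefSeq (GRCh38.p14), as the 250 bases before the annotated start in the direction of the gene, to show the elements named above. Capitals mark CArG boxes, the sites of SRF, in EGR1 (chr5:138465229-138465478, plus strand), GGAATG, the core of TEAD sites, in CTGF (chr6:131951373-131951622, minus strand), and TGACGTCA, the cAMP response element, in DUSP1 (chr5:172771196-172771445, minus strand). In EGR1 the CArG boxes end 96 and 74 bases before the start, in CTGF the GGAATG copies end at 164, 99 and 90 bases, and in DUSP1 the element ends at 118 bases.
EGR1: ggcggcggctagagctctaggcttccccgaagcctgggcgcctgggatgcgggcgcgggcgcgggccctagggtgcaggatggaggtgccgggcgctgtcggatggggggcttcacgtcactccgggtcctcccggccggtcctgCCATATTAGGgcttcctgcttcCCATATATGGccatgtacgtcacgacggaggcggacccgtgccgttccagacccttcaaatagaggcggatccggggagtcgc
CTGF: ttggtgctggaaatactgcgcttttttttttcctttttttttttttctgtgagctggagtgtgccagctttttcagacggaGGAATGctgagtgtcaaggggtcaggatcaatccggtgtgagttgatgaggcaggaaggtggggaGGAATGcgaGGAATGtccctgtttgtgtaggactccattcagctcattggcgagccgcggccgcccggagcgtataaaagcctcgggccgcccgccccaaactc
DUSP1: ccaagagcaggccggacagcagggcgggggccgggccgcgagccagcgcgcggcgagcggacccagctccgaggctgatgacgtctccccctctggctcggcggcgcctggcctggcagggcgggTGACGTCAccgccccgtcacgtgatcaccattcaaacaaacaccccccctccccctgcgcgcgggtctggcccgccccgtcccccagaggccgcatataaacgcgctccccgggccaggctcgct

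Promoters were matched for 48 of the 71 genes called higher, 56 of the 76 called lower and 11434 of all tested genes, and both strands of the 250 bases were searched. A CArG box can hold CCAAT or TATAAA within it, and otherwise none of the motifs named here lies within another. A CArG box was present in 2.08% of the promoters of genes called higher (1 of 48, that of EGR1). It was present in 9.52% of those of the immediate early factors (2 of 21) and in 1.01% of those of all tested genes. GGAATG was present in 10.4% of the promoters of genes called higher, 31.6% of those of the YAP and TAZ targets and 9.36% of all. TGACGTCA was present in 8.33% of the promoters of genes called higher, 8.93% of those called lower and 2.77% of all, and the TATA box TATAAA in 20.8%, 7.14% and 5.53%. These shares describe letters in a window and were not tested.

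Matrix metalloproteinases 1, 2 and 13 were higher on 4 kPa. These enzymes cleave collagens and other matrix proteins. Among metalloproteinases and their inhibitors 3 of 24 tested genes were called higher and none lower, against 0.435% of all tested genes called higher. MMP13, a collagenase, was at 6.50, 7.56 and 6.75 CPM on 4 kPa and at 3.37, 3.71 and 3.54 CPM on 25 kPa (log2 fold change 0.97, SE 0.13, edgeR adjusted p = 0.0030). MMP1, the interstitial collagenase, was at 72.6, 78.7 and 73.2 CPM against 50.8, 49.6 and 53.7 CPM (log2 fold change 0.54, edgeR adjusted p = 0.0018). MMP2, a gelatinase, was at 58.2, 66.7 and 58.7 CPM against 43.0, 44.2 and 45.3 CPM. All 3 were higher still on 0.5 kPa by level, where MMP2 was at 104 to 117 CPM and MMP13 at 12.2 to 14.7 CPM. The inhibitors TIMP1, TIMP2 and TIMP3 had log2 fold changes of 0.00, -0.02 and 0.09 and were not called. MMP2 lost its call without 4 kPa replicate 2 or any of the 25 kPa libraries, whereas MMP1 and MMP13 kept theirs with each library left out.

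Of 41 tested genes of the extracellular matrix, COL7A1, the collagen of anchoring fibrils, was the one called, at 49.4, 46.7 and 54.9 CPM on 4 kPa and at 33.7, 35.8 and 35.5 CPM on 25 kPa. It lost its call without any single 25 kPa library and with each library corrected for GC content, as did FAM133CP. The median log2 fold change of that list was 0.05, with 33 of 41 members above 0. Fibronectin (FN1) had 0.34 and COL1A1, a chain of type I collagen, 0.28, and neither was called. None of the 24 tested TGF-beta response genes was called in edgeR (6 at an unadjusted p under 0.05, all higher, and 1 in DESeq2). The 6 were 25% of the list, against 6.77% of all tested genes higher at that p. PMEPA1, a feedback inhibitor of SMAD signaling, was at 91.2, 97.8 and 108 CPM against 81.7, 74.9 and 80.3 CPM.

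Inflammatory genes and targets of NF-kB had a median log2 fold change of 0.35, and 19 of 21 tested members were above 0, but IER3 alone was called. IL6 was at 2.50, 2.70 and 5.77 CPM on 4 kPa and at 1.51, 1.78 and 1.26 CPM on 25 kPa, and the chemokine CXCL2 at 4.40, 5.01 and 10.4 CPM against 3.62, 1.68 and 3.25 CPM. In both cytokines replicate 3 of 4 kPa was the highest library by far. Without that library the list still had 1 gene called higher, and its median fell to 0.06. Single called genes stood in other lists. STAT2, which carries the interferon signal, rose by 0.40 and BHLHE40, a circadian and hypoxia-responsive repressor, by 0.42. Stanniocalcin 1 (STC1) rose by 0.56 and the efflux pump ABCC3 by 0.34. STAT2 lost its call in 3 of the 9 fits with a library left out (4 kPa replicate 2, 25 kPa replicates 3 and 4), BHLHE40 without 4 kPa replicate 2 or 25 kPa replicate 3, and STC1 and ABCC3 in 7 of the 9.

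**Figure D3:**
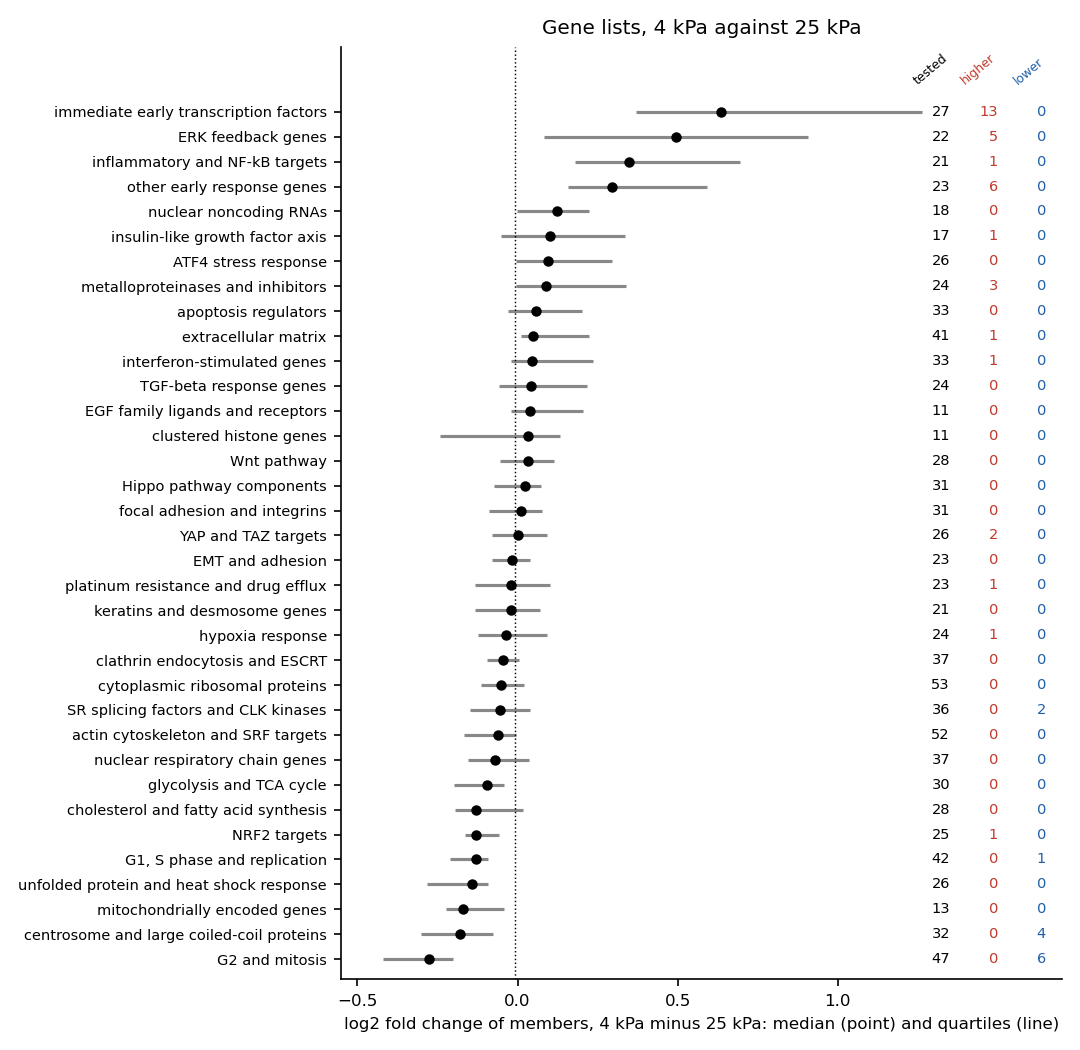
Median (point) and quartiles (line) of the log2 fold changes of the tested members of 35 gene lists, 4 kPa minus 25 kPa, with the numbers tested and called higher or lower in edgeR at the right. The dotted line is the median of all tested genes (-0.01). Immediate early factors (median 0.64) and ERK feedback genes (0.49) lie at the top and genes of G2 and mitosis (-0.28) at the bottom.

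Genes of G2 and mitosis were lower on 4 kPa. Of 47 tested genes 6 were called lower and none higher, against 0.465% of all tested genes called lower, and the median log2 fold change was -0.28. Of the 47 only CDC25B, a phosphatase that activates CDK1, was above 0 (0.15), and 29 did not overlap on the lower side (11.1% of all tested genes). CENPE (ENSG00000138778), the kinetochore motor that moves chromosomes to the spindle equator, was at 45.8, 43.3 and 39.3 CPM on 4 kPa and at 58.8, 72.3 and 70.2 CPM on 25 kPa (log2 fold change -0.65, SE 0.09, edgeR adjusted p = 0.0043). CDK1, the kinase that starts mitosis, was at 133, 125 and 115 CPM against 162, 166 and 171 CPM (log2 fold change -0.42, SE 0.08, edgeR adjusted p = 0.027). The lowest 25 kPa library of CDK1 was well above the highest of 4 kPa. KIF18A, a motor that limits the length of kinetochore microtubules, fell by 0.53, KIF20B, a motor of cytokinesis, by 0.51, the kinetochore protein NDC80 by 0.45 and the spindle checkpoint kinase TTK by 0.48. In KIF20B, NDC80 and TTK replicate 3 was the lowest library of 4 kPa.

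Other genes of division had values in the same direction without being called. TOP2A, a topoisomerase that untangles chromosomes, had a log2 fold change of -0.26, cyclin B1 (CCNB1) -0.26, AURKA -0.32 and HMMR -0.48. MKI67, the usual marker of cycling cells, had -0.09. CEP55, a protein of the final cut between daughter cells outside the lists, was called at 67.4, 67.3 and 57.8 CPM against 85.0, 96.1 and 88.2 CPM. Of 42 tested genes of G1, S phase and replication, ORC3, a subunit of the origin recognition complex, was called lower (log2 fold change -0.37) and none was called higher. The median of that list was -0.13. Of 32 genes of the centrosome and other long coiled-coil proteins 4 were called lower and none higher, with a median of -0.18. The 4 were CEP70, ESF1 and, both also in the mitosis list, CENPE and KIF20B. The share of all tested genes called lower was 0.465%. ESF1, a nucleolar protein of ribosome production, reversed with transcript sums (2.61).

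Most of these calls depended on single libraries, and the median of the G2 and mitosis list was -0.19 without 4 kPa replicate 3. The number of G2 and mitosis genes called lower was 3, 1 and 6 without 4 kPa replicates 1, 2 and 3. It was 5, 1 and 1 without 25 kPa replicates 2, 3 and 4, and 3, 1 and 8 without 0.5 kPa replicates 1, 2 and 3. The number of members of the centrosome list called lower was 1 (CENPE, also in the mitosis list) without 4 kPa replicate 1 or 2, without 25 kPa replicate 3 or 4, and without 0.5 kPa replicate 1 or 2, and 4 or 5 in the other fits. CENPE was the only one of the 6 mitotic genes to keep its call in all 9 fits. ORC3 lost its call in 7 of the 9 and CEP55 in 3 (without 4 kPa replicate 2 or 25 kPa replicates 3 or 4). On 0.5 kPa, CDK1 was at 130.3, 137 and 119 CPM and TTK at 70.3, 76.5 and 68.9 CPM, close to their 4 kPa levels, whereas CENPE was at 59.9, 61.1 and 64.0 CPM.

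**Figure D4:**
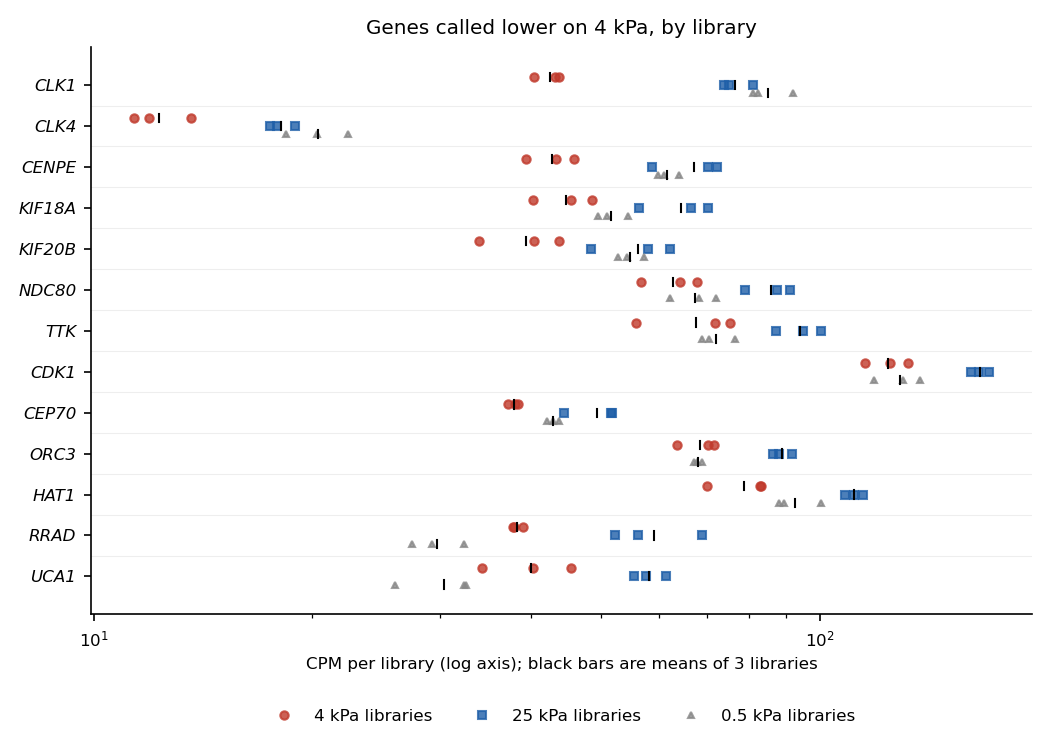
CPM per library on a log axis for 13 genes called lower on 4 kPa, with red circles for 4 kPa, blue squares for 25 kPa, gray triangles for 0.5 kPa and black bars for means of 3 libraries. The circles lie to the left of the squares in every gene shown, as for CLK1 at 40.4 to 43.7 CPM against 73.8 to 80.9 CPM.

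The promoters of CDK1 (chr10:60778081-60778330, plus strand) and CEP55 (chr10:93496362-93496611, plus strand) are printed from the same source. Capitals mark the letters CCAAT and TTTGAA, the letters of the CHR element, on either strand, which lie close together in both. In CDK1 they end at 146 and 156 bases before the start and in CEP55 at 98 and 111 bases. Among other mitotic genes called lower, KIF18A holds both within its 250 bases, KIF20B only CCAAT, and CENPE and NDC80 neither. These are matches of letters, and whether the copies marked here are the working elements was not tested.
CDK1: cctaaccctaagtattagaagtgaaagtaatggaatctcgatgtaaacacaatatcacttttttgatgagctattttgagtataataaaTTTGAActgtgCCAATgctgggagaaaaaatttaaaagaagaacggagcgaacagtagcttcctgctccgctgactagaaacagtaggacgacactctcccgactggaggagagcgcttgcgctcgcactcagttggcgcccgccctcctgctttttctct
CEP55: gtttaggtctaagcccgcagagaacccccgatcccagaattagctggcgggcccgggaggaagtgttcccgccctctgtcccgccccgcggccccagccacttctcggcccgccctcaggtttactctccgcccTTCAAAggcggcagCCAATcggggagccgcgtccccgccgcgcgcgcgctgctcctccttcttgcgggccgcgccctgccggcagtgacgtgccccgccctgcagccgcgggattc

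CCAAT was present in 58.9% of the 56 matched promoters of genes called lower, 29.2% of the 48 of genes called higher, 70.0% of the 40 of G2 and mitosis genes and 34.7% of all tested genes. TTTGAA was present in 19.6%, 14.6%, 50.0% and 8.5% of them. These shares, too, are descriptions without a test.

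CLK1 was the gene with the smallest adjusted p among those lower on 4 kPa. CLK1 (ENSG00000013441, chromosome 2 from 200853009 to 200864744 in hg38) and CLK4 encode kinases that phosphorylate the SR splicing factors, and retained introns in their own transcripts are known to vary with splicing activity. CLK1 was at 40.4, 43.2 and 43.7 CPM on 4 kPa and at 73.8, 80.9 and 75.0 CPM on 25 kPa (log2 fold change -0.85, SE 0.08, edgeR adjusted p = 6.7e-05). It was at 80.8, 82.1 and 92.0 CPM on 0.5 kPa, above all 4 kPa libraries as well. CLK4 was at 11.9, 11.3 and 13.6 CPM on 4 kPa and at 17.5, 18.9 and 17.9 CPM on 25 kPa. Of 36 tested SR factors and CLK kinases these 2 were called lower and none higher, against 0.465% of all tested genes called lower. The kinase CLK2 had a log2 fold change of 0.21 and CLK3 0.13, SRSF5 0.34 and SRSF6 0.28, and these were not called. CLK1 kept its call with each library left out, and CLK4 lost it in 6 of the 9 fits (without 0.5 kPa replicate 2, 4 kPa replicates 1 or 2, or any 25 kPa library).

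Further genes lower on 4 kPa did not belong to a common list. RRAD, a small GTPase that binds calcium channels, was at 37.8, 39.0 and 37.9 CPM on 4 kPa and at 68.9, 52.2 and 56.1 CPM on 25 kPa. The long noncoding RNA UCA1, first described in bladder carcinoma, was at 40.3, 45.4 and 34.3 CPM against 57.5, 61.4 and 55.5 CPM. HAT1, which acetylates new histone H4, was at 82.9, 82.9 and 70.0 CPM against 108, 112 and 115 CPM. In each of these the groups were separate, and RRAD and UCA1 were at 27.4 to 32.4 CPM and 26.0 to 32.6 CPM on 0.5 kPa, below both stiffer gels. Zinc finger genes were among the largest falls (ZNF257 -0.61, ZNF681 -0.55, ZNF566 -0.50), together with ZBED8 (-0.57), LINC01111 (-0.51) and CCDC112 (-0.49). ZNF681 and LINC01111 reversed with transcript sums (0.43 and 0.90). With single libraries left out, ZNF566 and LINC01111 lost their calls in 8 of the 9 fits and ZBED8 in 7. ZNF681 and CCDC112 lost theirs in 6 and ZNF257 in 5. All of these genes also lost their calls with each library corrected for GC content. RRAD lost its call without 4 kPa replicate 1 or 2 or 25 kPa replicate 4, HAT1 did so without replicate 2 of 4 kPa and without replicate 3 or 4 of 25 kPa, and UCA1 in 7 of the 9 fits. The single called gene at least 2-fold lower was the pseudogene FAM133CP, at 0.550, 0.638 and 0.489 CPM on 4 kPa and at 1.41, 1.32 and 1.16 CPM on 25 kPa. It lost its call in 8 of the 9 fits, and its reads may be shared with related copies.

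The genes called lower had AT-rich transcripts. Their median GC content was 39.5%, against 56.6% in the genes called higher and 49.5% in all tested genes. Among the 4078 genes of lowest GC content (up to 43.5%), 70 of the 76 genes called lower were found, and their median log2 fold change was -0.09. In the 4078 genes of highest GC content, which held 34 of the 71 genes called higher, it was 0.05. This relation also separated libraries of the same gel. In the genes of lowest GC content the median deviation from the mean of the 6 libraries was 0.007, -0.065 and -0.081 for 4 kPa replicates 1, 2 and 3 and -0.021, 0.093 and 0.080 for 25 kPa replicates 2, 3 and 4. With each library corrected for GC content, an alternative added after seeing the data, 65 genes were called, 53 higher and 12 lower. Then 13 immediate early factors, 6 early response genes and 5 ERK feedback genes were called higher, the same numbers as without the correction. The number of G2 and mitosis genes called lower was 2 in place of 6, and CDK1, NDC80, KIF20B, TTK and CLK4 lost their calls, while CENPE, KIF18A and CLK1 kept theirs.

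**Figure D5:**
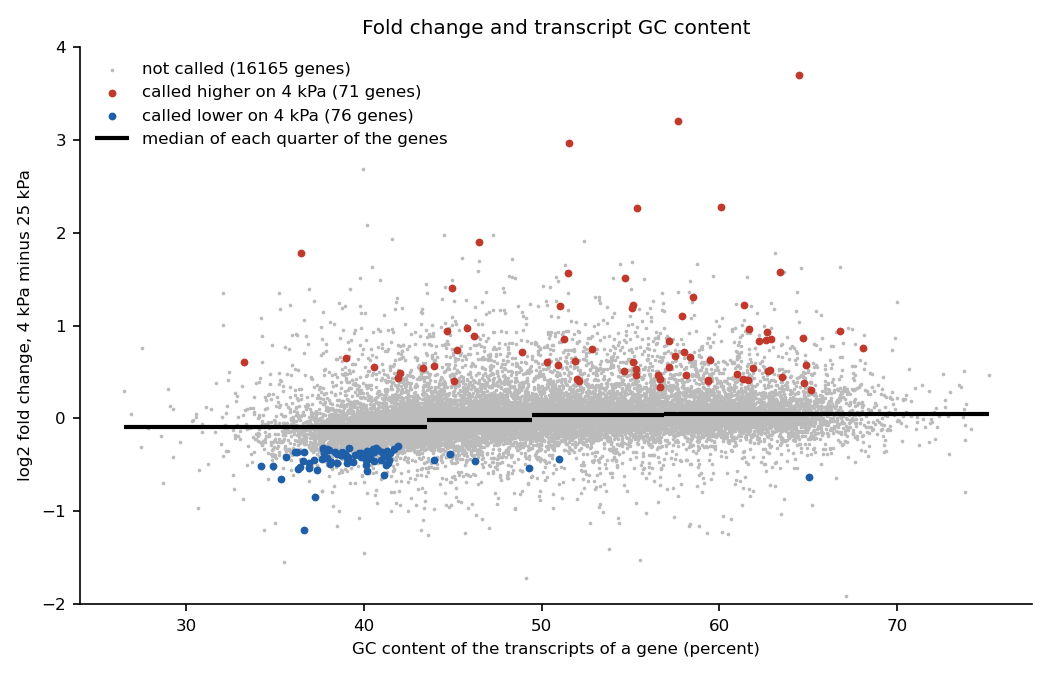
Log2 fold change (4 kPa minus 25 kPa) against the GC content of a gene's transcripts in percent, for the tested genes with a GC value. Red points are genes called higher on 4 kPa, blue points genes called lower, and black lines the median of each of 4 equal bins of genes by GC content (1 gene lies below the lower edge). The blue points crowd at the left, where 70 of 76 lie in the lowest bin.

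No gene of the cytoskeleton, adhesion or keratin lists was called between these gels. Of 52 tested genes of the actin cytoskeleton none was called in edgeR (12 at an unadjusted p under 0.05, 1 higher and 11 lower, and 3 in DESeq2). The 11 were 21.2% of the list, against 8.06% of all tested genes lower at that p. CNN1, an actin-binding calponin of smooth muscle, was at 0.550, 0.688 and 0.635 CPM on 4 kPa and at 1.36, 1.32 and 1.75 CPM on 25 kPa, and LIMA1, which bundles actin, was at 116, 113 and 118 CPM against 132, 148 and 145 CPM. Both were separate between the gels without passing the test. None of the 31 focal adhesion genes (4 at an unadjusted p under 0.05, 1 in DESeq2), the 23 genes of EMT and adhesion (1 and none) and the 21 keratins and desmosome genes (2 and 1) was called in edgeR. Those at an unadjusted p under 0.05 were all lower, 12.9%, 4.35% and 9.52% of these lists against 8.06% of all tested genes. Paxillin (PXN) was at 178, 177 and 182 CPM on 4 kPa and at 176, 169.8 and 165 CPM on 25 kPa. VIM, the intermediate filament of mesenchymal cells, was at 1570.2, 1617 and 1955 CPM against 2058, 1763 and 1976 CPM, and E-cadherin (CDH1) at 13.6, 13.1 and 11.8 CPM against 12.2, 13.7 and 14.9 CPM. The libraries of VIM and CDH1 overlapped. Beta-catenin (CTNNB1) had a log2 fold change of -0.06.

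None of the tested genes of drug resistance that the study names was called between 4 and 25 kPa. The study reports BCL2, BIRC3, ERBB2, MAP3K5 and PIK3R1 as upregulated on soft substrates, without naming the gels compared. It measured ABCB1 and ABCB4 as protein, whereas RNA is given here. The apoptosis inhibitor BCL2 had a log2 fold change of 0.15 (SE 0.14), BIRC3 -0.13 (SE 0.28), the stress kinase MAP3K5 -0.04 (SE 0.10) and PIK3R1, a regulatory subunit of PI3 kinase, 0.01 (SE 0.13), and none was called. The efflux pump genes ABCB1 and ABCB4 did not pass the count filter, with 0 to 3 counts per library. Outside these, the pump ABCC3 was called higher, at 141, 142 and 144 CPM on 4 kPa against 112, 117 and 108 CPM on 25 kPa and at 156 to 169 CPM on 0.5 kPa, but lost its call with the GC correction.

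Lists of metabolism and stress gave no further call. None of the 30 tested genes of glycolysis and the TCA cycle was called in edgeR (7 at an unadjusted p under 0.05, all lower, and 3 in DESeq2), and 28 of them were at or below 0. These were 23.3% and 93.3% of the list, against 8.06% and 51.5% of all tested genes. Of 26 genes of the unfolded protein and heat shock response none was called (8, all lower and 30.8% of the list, and 3 in DESeq2), with HSP90AA1 at 2065, 1951 and 1636 CPM on 4 kPa and at 2416, 2634 and 2732 CPM on 25 kPa. The 26 genes of the ATF4 response (0 and 0), the 53 cytoplasmic ribosomal proteins (4 and 0), the 28 genes of cholesterol and fatty acid synthesis (4 and 1), the 37 nuclear genes of the respiratory chain (7 and 1) and the 13 mitochondrially encoded genes (7 and 1) had none called in edgeR either. In parentheses are the numbers at an unadjusted p under 0.05 and those called in DESeq2, against 14.8% of all tested genes at that p. Replicate 3 of 4 kPa decided the direction of the ATF4 list, whose median log2 fold change was 0.09 with all libraries and -0.32 without it. With replicate 3 of 0.5 kPa left out as well, 12 of the 26 ATF4 genes, 7 of the 53 ribosomal proteins and 7 of the 13 mitochondrially encoded genes were called lower. That fit called far more genes in general, 572 lower and 547 higher of 16494 tested, against 76 lower and 71 higher with all libraries. The median of the ribosomal proteins was -0.05 with all libraries and lay between -0.16 (without 4 kPa replicate 3) and 0.05 (without 25 kPa replicate 2) with single libraries left out.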

How the data were processed

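Poly(A) RNA of SKOV-3 cells was sequenced, with a TruSeq kit in the methods but NEBNext Ultra in the labels. FastQC 0.11.5, HISAT2 2.1.0, bcl2fastq and hg38 appear in the submitters' processing notes. The counting program, its strand setting and its annotation were not given in the sources used, so overlapping and antisense genes may share reads. Whole-number counts of 36343 genes were deposited, with the FPKM of each gene, which equalled count over library total and gene length (6690 genes above 500 counts, all within 1%). Estimated counts per transcript, also deposited by the authors, sum to 3.57 times the gene counts and served in an alternative only. Another 3 sample columns in these tables fit none of the samples and were left out. For 65 symbols on several rows the row of highest count was taken.

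Genes passing filterByExpr were scaled by TMM and fitted over all 9 libraries (19609740 to 21033433 counts each) with edgeR 4.0.16 in R 4.3.3 (quasi-likelihood, robust estimate of the spread), and p-values of 4 minus 25 kPa were adjusted by Benjamini-Hochberg over 16335 genes. The robust option was chosen after the fit without it had been seen (114 calls). GC content was computed from GENCODE 29 transcripts, and promoters came from RefSeq. Between libraries of the same gel, chi-square over its degrees of freedom was 3.08 to 24.5, above sampling noise. Counts were simulated for 16063 genes, 200 of them changed, and changes were placed only where the level averaged 5 CPM or more. Calls were made for 73.7% of 1.5-fold, 98.5% of 2-fold and 100% of 4-fold changes, with 17 false calls. Counts were drawn separately for each gene, without shifts shared by many genes of a library, such as the GC relation. The real libraries held such shifts, so recovery may be lower and false calls more frequent in the data. Recovery at lower levels was not tested. Named genes were the 15 largest rises and 15 largest falls (called, no overlap, 5 CPM or more on average), up to 5 called members per list by adjusted p or else 2 by p, and 12 genes the study names. All others were named after their values were seen. A few genes are not reported here. The members and lists were chosen with earlier results of these data known.

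Alternatives were DESeq2 1.42.0, other scalings and count filters, limma 3.58.1 on log2(FPKM + 1) or log2(FPKM + 0.1), transcript sums, a replicate block, GC correction, no mitochondrial genes, the 6 libraries alone and each library left out. Python 3.11.15 with pandas 2.3.3 and matplotlib 3.10.9 drew the figures.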

Additional observations from a re-analysis of the deposited data

How the results depend on the processing

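All 147 called genes kept their direction in every alternative that tested them except transcript sums, where 133 did. Called genes were 71 higher and 76 lower, 147 in all, 18 of them at 2-fold and 43 in lists. These counts became, in the same order, 135, 255, 390, 19 and 86 with DESeq2; 203, 276, 479, 50 and 100 with no count filter; 36, 5, 41, 12 and 27 with only the 6 libraries compared; and 53, 12, 65, 15 and 34 with GC correction. Upper-quartile scaling gave 69 higher and 28 lower (97 in all, 71.1% higher). With limma on FPKM + 1 the counts were 39, 12, 51, 6 and 27, on FPKM + 0.1 40, 12, 52, 10 and 27, and without a filter 29, 4, 33, 9 and 21. Transcript sums gave 10, 5, 15, 9 and 13, and an unadjusted p 1106, 1316, 2422, 168 and 224. Without the libraries numbered 3 of 4 and 0.5 kPa the counts were 547, 572, 1119, 76 and 162. The robust option, RLE scaling, the filter of 10 counts and leaving out mitochondrial genes moved no count by over 1.5 times. Leaving out single libraries, 22 to 148 genes were higher, 2 to 154 lower, 25 to 302 called, 12 to 32 called at 2-fold and 22 to 59 called in lists. The cause of these differences was not tested, beyond the fewer samples or other genes that each setting holds.

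The gels share only the replicate numbers 2 and 3, and same-numbered libraries did not deviate together (r = -0.058 and -0.23 across genes, which are not independent). With the replicate block 14 higher and 2 lower genes passed, 16 in all, 12 at 2-fold and 15 in lists.

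Among the genes reported here, those reversed with transcript sums (log2 fold change) were ESF1 2.61, LINC01111 0.90, ZNF681 0.43, AC015813.1 -0.041, AC020916.1 -0.43, AL161431.1 7.23, ARMT1 0.043, CCDC57 -2.23, KLF6 -0.98, LBH -0.047, LENG8 -1.07 and ZNF626 0.37, of which KLF6 alone passed the test there (edgeR adjusted p = 0.014). The test recovered 73.7% of simulated 1.5-fold changes where levels averaged 5 CPM or more, in counts without shifts shared by many genes. Smaller differences may thus be missed at this depth and number of libraries. Below 5 CPM no recovery rate is known, and larger differences may be missed there as well.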

Other observations

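Beyond the lists, several regulators were called higher on 4 kPa, all named after their values were seen. SOCS3, a feedback inhibitor of JAK and STAT signaling, was at 23.5, 23.9 and 27.0 CPM on 4 kPa and at 14.7, 14.1 and 15.1 CPM on 25 kPa (log2 fold change 0.76, edgeR adjusted p = 0.0018), and kept its call with each library left out. HES1, a repressor that Notch induces, was at 29.2, 27.4 and 26.5 CPM against 20.1, 18.1 and 17.5 CPM, and BCL6, a zinc finger repressor, at 10.7, 13.0 and 13.2 CPM against 8.34, 7.72 and 8.10 CPM. HES1 lost its call in 4 and BCL6 in 5 of the 9 fits with a library left out. EDN1, the precursor of the vasoconstrictor endothelin 1, was at 185, 195 and 219.9 CPM on 4 kPa, 150.3, 141 and 164 CPM on 25 kPa and 81.0 to 91.5 CPM on 0.5 kPa, and lost its call in 8 of the 9 fits likewise. The gasdermin GSDMB rose by 0.71 and lost its call in 3 of these fits.

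Among genes lower on 4 kPa were SRGN, a proteoglycan of secretory granules (88.5, 85.5 and 92.7 CPM on 4 kPa, 114, 108 and 110.01 CPM on 25 kPa, 63.1 to 67.9 CPM on 0.5 kPa), and MFAP5, a protein of elastic microfibrils (54.5, 48.9 and 61.15 CPM against 75.8, 74.0 and 76.8 CPM). The chromatin proteins DEK and CBX3 fell by 0.40 and 0.37. SRGN, MFAP5, DEK and CBX3 lost their calls in 7, 6, 6 and 7 of the 9 fits with a library left out. Of 511 tested genes with ZNF symbols 4 were called lower and none higher in edgeR, with a median log2 fold change of -0.04 (69 lower and 20 higher at an unadjusted p under 0.05). The 4 were 0.783% of these genes, against 0.465% of all tested genes called lower, and the 69 and 20 were 13.5% and 3.91%, against 8.06% and 6.77%. Among 1779 tested genes annotated as antisense, long intergenic, sense intronic or otherwise unclassified transcripts, 9 were called higher (0.506%, near the 0.435% of all tested genes) and 3 lower (0.169% against 0.465%), with a median of 0.09. At an unadjusted p under 0.05, 163 of them were higher (9.16% against 6.77%) and 49 lower (2.75% against 8.06%).

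Other lists held few called genes. A single gene each was called higher, and none lower, in the lists of the hypoxia response (24 tested), interferon-stimulated genes (33), NRF2 targets (25) and the insulin-like growth factor axis (17). The share of all tested genes called higher was 0.435%. No gene was called in edgeR among 18 nuclear noncoding RNAs (3 at an unadjusted p under 0.05, 1 in DESeq2), 33 apoptosis regulators (8 and 3), 28 Wnt pathway genes (4 and 0), 37 genes of clathrin endocytosis and ESCRT (3 and 1) and 11 clustered histone genes (1 and 0). Of all tested genes 14.8% reached that p, 6.77% higher and 8.06% lower. The 3 noncoding RNAs and 6 of the 8 apoptosis regulators were higher, 16.7% and 18.2% of their lists. Fibroblast markers (7 of 9 tested) summed to 61.7 to 68.0 CPM on 4 kPa and 54.9 to 59.6 CPM on 25 kPa, and endothelial markers (4 of 8) to 2.86 to 3.21 and 2.61 to 3.59 CPM, with EMCN at 0. Markers of the MCF-7 breast line (5 of 8) summed to 253 to 279 and 211.2 to 234 CPM, with TFF1 and GATA3 at 0.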
